A study of Drosophila melanogaster with 2 samples.

Results

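The Polycomb group and the trithorax group are described here as possible targets of the homeodomain protein CG15696, mapped with a GFP tag in Drosophila melanogaster by chromatin immunoprecipitation sequencing (ChIP-seq). The 38 genes were taken from a list of known subunits and partners, 21 of the Polycomb group and 17 of the trithorax group, out of 13945 protein-coding genes on the 6 chromosome arms. All 38 were found in the annotation, calypso under its current symbol caly. For each gene, sites were counted in the gene body or within 2 kb of it, and the distance to its own transcription start sites (TSSs) was measured. The samples form 1 group: whole embryos of mixed sex, aged 2 to 8 h, of a transgenic line that stably expresses CG15696 with GFP at its C-terminus, precipitated with an antibody against GFP. They are biological replicates 1 and 3. The labels do not say what drives the transgene, and whole embryos mix all tissues, so a site may be occupied in some cells only. With 1 group there is no comparison between conditions and no test across samples, and every value below describes these 2 libraries.

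Polycomb and trithorax proteins keep genes off or on through cell divisions after the factors that first set their state have gone. Polycomb repressive complex 2 (PRC2) methylates histone H3, PRC1 compacts chromatin and ubiquitylates histone H2A, and the DNA-binding protein Pho helps to bring both to Polycomb response elements. Trithorax group proteins include nucleosome remodellers and histone methyltransferases that keep the same targets, among them the Hox genes, active in the embryo.

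The authors' list of peaks that keep their rank between replicates, by the irreproducible discovery rate (IDR), held 5354 sites. Rank 1 is the site of highest signal. The members' territories held 77 of them, with signals from 141 to 7767 and a median of 356, where the median of all sites was 259. The scale of the signal and the read depth are not given. Of the 77 sites, 45 (58.4%) were among the stronger 2677 of the whole list, and 8 were among the top 100. The strongest sites lay near ash1 (rank 1), ph-p (rank 2) and Caf1-55 (rank 4), followed by Trl (rank 31), Pc (rank 34), brm (rank 43), ph-d (rank 85), E(z) (rank 101), phol (rank 114) and Kdm2 (rank 195). The 101 bases around the summits of 7 of these sites are shown to let the sites inside or just upstream of a member (ph-p, ph-d, Trl, Kdm2) be read beside those at the promoter of a neighbour (ash1, Caf1-55) or at a promoter shared with one (brm). They are the plus strand of the RefSeq Release 6 genome, which has the coordinates of dm6, and capitals mark matches to the preset motifs described further on.
ph-p, chrX:2137280-2137380: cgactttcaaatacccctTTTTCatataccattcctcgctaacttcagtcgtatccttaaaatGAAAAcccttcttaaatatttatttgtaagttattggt
ph-d, chrX:2124048-2124148: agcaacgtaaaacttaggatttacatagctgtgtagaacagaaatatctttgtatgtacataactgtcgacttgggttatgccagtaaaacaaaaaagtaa
Trl, chr3L:14759459-14759559: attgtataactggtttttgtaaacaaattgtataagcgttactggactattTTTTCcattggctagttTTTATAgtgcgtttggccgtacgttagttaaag
Kdm2, chr3R:9057488-9057588: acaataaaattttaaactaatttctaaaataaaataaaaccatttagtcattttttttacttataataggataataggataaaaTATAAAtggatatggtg
brm, chr3L:15982959-15983059: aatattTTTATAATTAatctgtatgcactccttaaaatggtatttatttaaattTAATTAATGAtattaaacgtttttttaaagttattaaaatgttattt
ash1, chr3L:19590569-19590669: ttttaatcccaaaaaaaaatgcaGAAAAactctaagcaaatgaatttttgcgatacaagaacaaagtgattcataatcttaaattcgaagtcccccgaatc
Caf1-55, chr3R:15229486-15229586: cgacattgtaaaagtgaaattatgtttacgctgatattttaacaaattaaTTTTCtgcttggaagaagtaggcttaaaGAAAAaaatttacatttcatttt
All of these windows are rich in A and T. The GC content was 31.7% at ph-p, 32.7% at ph-d, 32.7% at Trl, 16.8% at Kdm2, 13.9% at brm, 30.7% at ash1 and 24.8% at Caf1-55, against a median of 31.7% over all sites.

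Most members had a site, but many of these sites were closer to the TSS of another gene. In all, 31 of 38 members (81.6%) had a summit in their territory, the gene body with 2 kb on each side, where 37.2% of all protein-coding genes did. Members are long, with a median length of 7785 bp against 2166 bp over all genes, and long genes have sites more often. At the average share of genes in the same length class, of 10 equal classes by territory length, there would be 18.4 members with a site. The 2 kb limit mattered for Caf1-55, whose only summit lies 1972 bp outside the gene, while the nearest summit of a member without a site lies 4867 bp outside. Within 500 bp of an own TSS, 17 members (44.7%) had a site, against 21.4% of all genes and 10.3 members from length. In the gene body alone, 14 members had a site, against 11.8% of all genes and 8.93 members from length. For 18 members (47.4%) an own TSS was the nearest protein-coding TSS to at least 1 site, against 24.3% of all genes and 13.2 members from length. The remaining 13 members with a site divided into 3 with a summit within 500 bp of the own TSS but nearer to that of a neighbour (brm, Bap60 and trr) and 10 with sites only near other genes. At the strongest site of each member with a site, the own TSS was the nearest in 16 of 31.

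**Figure D1:**
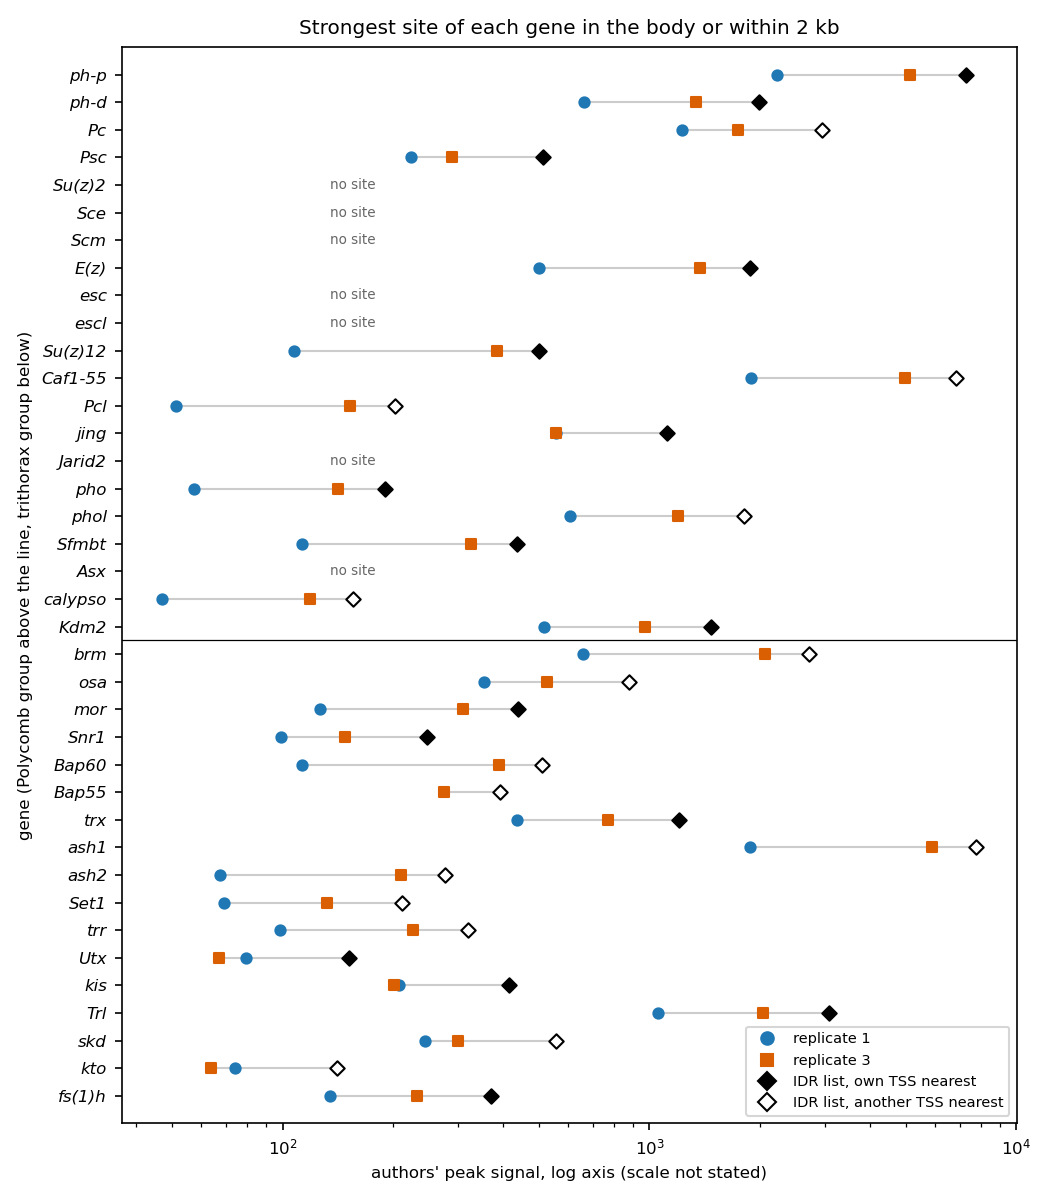
Signal (log axis) of the strongest IDR site in the territory of each of the 38 genes, with the matched peak of replicate 1 (circles) and of replicate 3 (squares). Filled diamonds mark sites whose nearest TSS is the gene's own. The sites of ash1, ph-p and Caf1-55 reach 7767, 7267 and 6861, and 7 Polycomb group genes have no site.

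In PRC1, the tandem genes ph-p and ph-d held most of the sites. They encode the 2 polyhomeotic proteins, whose SAM domains link PRC1 units together. The site of rank 2 lies in the first intron of ph-p on X from 2137112 to 2137602, 475 bp upstream of an internal TSS. Its signal was 7267 in the combined list, 2223 in replicate 1 and 5137 in replicate 3, and it ranked 2 in each. A second site, of rank 41, lies in the 5' untranslated region of ph-p on X from 2137655 to 2138124, 420 bp from a TSS, with signals of 1155 in replicate 1 and 1758 in replicate 3. The first intron held 2 more, of ranks 461 and 2936. Both of the stronger sites lay within 500 bp of a TSS of ph-p and ranked in the top 50 of both replicates.

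ph-d had a similar but weaker cluster around its start. Its strongest site (rank 85) lies on X from 2123885 to 2124415, 812 bp upstream of the TSS, with signals of 664 in replicate 1 and 1337 in replicate 3. The same region holds another summit, of rank 1506, which lies 1035 bp upstream of ph-d and 1889 bp past the end of ph-p and is the only site that 2 members share. It had a matched peak in replicate 1 (rank 1954) and none within 100 bp in replicate 3. Weaker sites lay in the first intron (rank 3887) and the 5' untranslated region (rank 4278) of ph-d. The 2 genes arose by duplication, and a comparison of their sequence was made after these values were seen. In the 301 bases around the ph-d summit of rank 1506, 225 aligned to ph-p with 86.7% identity, in a stretch centred 105 bp from the ph-p summit of rank 41. In the opposite direction, 160 of the 301 bases around rank 41 aligned with 84.4% identity to a stretch centred 5 bp from rank 1506. The window at rank 2 had 84 bases in an alignment of 92.9% identity to ph-d, centred 445 bp from the nearest summit there. The window at rank 85, the strongest site of ph-d, had 90 bases of 75.6% identity to ph-p, centred 140 bp from rank 41. The window at rank 4278 had 133 bases of 94.0% identity, centred 513 bp from the nearest summit, and the windows at ranks 461, 2936 and 3887 had only 18 to 21 aligned bases. Of 54 stretches of 36 bases sampled in the window at rank 2, 3 had another exact copy on the arms, and none of the 54 did in each of the other 7 windows of the pair. How the authors treated reads that map to both copies is not given in the sources used here.

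The other PRC1 genes had few or no sites of their own. Psc, a RING-finger subunit, had a site in its second intron (rank 1189, signal 512, with 224 in replicate 1 and 291 in replicate 3) and another 102 bp from a TSS (rank 2917). Pc encodes the chromodomain protein that reads methylated histone H3. Its only site (rank 34, signal 2953, with 1225 in replicate 1 and 1738 in replicate 3) lies 1572 bp past the end of the gene, 92 bp from the TSS of CG11309 and 13454 bp from its own. The summit thus sits at a promoter of a neighbour. Su(z)2, the paralogue and neighbour of Psc, Sce, the ubiquitin ligase for histone H2A, and Scm, a SAM-domain partner of PRC1, had no site.

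In PRC2, E(z) had a strong site at its own promoter. E(z) is the histone methyltransferase of the complex. Its site on 3L from 10637809 to 10638221 has its summit 114 bp from the TSS of E(z), and a TSS of Cnep1r2 lies within 500 bp. The signal was 1880 in the combined list, 502 in replicate 1 and 1373 in replicate 3, which placed it at rank 204 in the first and 86 in the second. Su(z)12, an essential partner of E(z), had summits 62 bp (rank 1228) and 137 bp (rank 4033) from its TSS, in a promoter region shared with the prefoldin gene Pfdn6. The weaker summit ranked 26529 in replicate 1 and 3279 in replicate 3, so the replicates placed it far apart. Caf1-55, a histone-binding subunit found in several complexes, owed its rank of 4 to a site 1972 bp past its end. That summit lies 128 bp from the TSS of Art3, 3960 bp from that of Caf1-55, and had signals of 1886 in replicate 1 and 4980 in replicate 3. Its place just inside the 2 kb limit is the sole reason why Caf1-55 counts as a gene with a site.

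The accessory genes of PRC2 differed widely. jing, a zinc-finger gene related to the mammalian PRC2 partner AEBP2, spans 119787 bp and held 11 sites, 10 of them in its first intron and the other 1540 bp upstream. Their ranks ran from 329 (signal 1119) to 4856, and none lay within 500 bp of a TSS of jing. The strongest had signals of 555 in replicate 1 and 556 in replicate 3, but ranked 157 in the first and 546 in the second. Pcl, which encodes a PRC2 subunit, had 2 weak sites (ranks 3455 and 4428) past its end, both nearest to the TSS of pAbp. esc and its paralogue escl, which encode a WD-repeat subunit, and Jarid2 had no site.

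Among the remaining Polycomb group genes, Kdm2 had a cluster of sites inside the gene. Kdm2 encodes a JmjC-domain protein of a PRC1-related complex. Its second intron held 4 sites, between 673 and 4247 bp from its TSS, with ranks of 195, 1233, 4073 and 4126. The strongest, on 3R from 9057307 to 9057750, had a signal of 1471, with 517 in replicate 1 and 975 in replicate 3. The fifth site near Kdm2 lies 15 bp from the TSS of Ada. Of the genes of the Pho complex, which binds DNA, pho had a site 301 bp upstream (rank 3728) and Sfmbt a site 152 bp upstream (rank 1455). A TSS of CG5439 also lies within 500 bp of the Sfmbt summit. phol, the paralogue of pho, had sites of rank 114 and 1418, which lie 102 bp from the TSS of CG3552 and 116 bp from that of CG3448. calypso, a deubiquitinase for histone H2A, had a weak site (rank 4577) 597 bp upstream that is nearest to the TSSs of CG42837 and Lipt1, and its partner Asx had none.

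All 6 members that encode subunits of the Brahma remodelling complex had a site in the territory, against 37.2% of all genes and 2.61 genes from length. In 4 of the 6 it lay within 500 bp of an own TSS, against 21.4% of all genes and 1.49 from length, and in each of these 4 at a promoter shared with a neighbour. How often sites at an own TSS lie at shared promoters over all genes was not computed. The strongest site of the 6 genes was that of brm, the ATPase, on 3L from 15982806 to 15983220 (rank 43, signal 2716). Its signal was 658 in replicate 1 and 2062 in replicate 3, and it ranked 104 in the first and 30 in the second. The summit lies 140 bp from the TSS of brm and 126 bp from that of Arl1, so the site cannot be assigned to 1 of the 2 genes by distance. Bap60 (rank 1198), mor (rank 1436) and Snr1 (rank 2807), which encode further subunits, had summits 117, 180 and 131 bp from their own TSS. Each of these also lay within 500 bp of the TSS of another gene, CG12096 for Bap60, Hel89B for mor and mRpL44 for Snr1. Second sites of mor (rank 1485) and Snr1 (rank 2941) were nearer to the TSSs of Hel89B and HDAC3. osa, which encodes the subunit that defines the BAP form of the complex, differed from these with 3 sites in intron 4, 12421 bp or more from an own TSS. The strongest of these (rank 508) had signals of 354 in replicate 1 and 525 in replicate 3. Bap55, an actin-related subunit, had 2 sites past its end. The stronger (rank 1655, signal 391), 133 bp from the TSS of CG6550, had no partner in replicate 1 and a signal of 276 in replicate 3, and the other (rank 2004) lay 48 bp from the TSS of Mtap. These 6 genes are not the whole complex. Of further subunits in the wider list below, Bap170 (rank 4679) and d4 (rank 4361) had a site, and Bap111, polybromo and e(y)3 had none.

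The histone methylation genes of the trithorax group had sites of very different kinds. trx, the founding methyltransferase of the group, had sites in its second intron (rank 287, signal 1204, with 435 in replicate 1 and 771 in replicate 3) and in its first (ranks 685 and 4840). A weak site (rank 5077) lay 103 bp from its TSS and had no partner in replicate 1, and another (rank 3905) lay 1886 bp upstream, near the TSS of red. ash1, another methyltransferase, is assigned the strongest site of the whole list because the summit lies 154 bp past its 3' end. That summit is 8136 bp from the TSS of ash1 and 95 bp from that of CG14100, and no other site lay in the territory of ash1. trr, a methyltransferase of enhancers, had its strongest site (rank 2100, signal 319, with 98.7 in replicate 1 and 226 in replicate 3) past its end, 46 bp from the TSS of CG14818. Another past its end (rank 3794) lay near the TSS of Coa8, and the site 180 bp from the TSS of trr (rank 3010) is nearer to that of mRpL16. Utx, a demethylase, had 1 weak site 479 bp from a TSS (rank 4685). ash2 and Set1, which work together in methylation of promoters, had 1 site each (ranks 2492 and 3310), past the gene end and nearest to the TSSs of CG6695 and MED21.

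Trl held 6 sites, the most of any trithorax group member. It encodes GAGA factor, which binds GA repeats at promoters and Polycomb response elements. The 13121 bp gene held 5 sites in its body and 1 upstream, a density of 3.50 sites per 10 kb of territory against 0.40 over the arms. The strongest, in the second intron on 3L from 14759304 to 14759751, ranked 31 with a signal of 3089. It ranked 30 in replicate 1 (signal 1058) and 33 in replicate 3 (signal 2040). The others in the body ranked 1861, 2273, 2358 and 4192. Similar densities were found at Kdm2 (3.39), ph-d (3.46) and ph-p (3.09). Short genes with 1 or 2 sites also reach such densities, as Bap55 did with 3.56.

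The other trithorax group genes had their strongest sites at ranks from 1052 (skd) to 5098 (kto). kis, a chromodomain remodeller, held 5 sites with ranks from 1542 to 4716, of which 3 lie in intron 12 of 17, upstream of an internal TSS. The strongest had signals of 208 in replicate 1 and 201 in replicate 3, but ranked 1044 in the first and 2077 in the second. Of the Mediator kinase module genes, skd held 3 sites (ranks 1052, 1256 and 4771), and the site of kto (rank 5098) lay 235 bp past its end at the TSS of Papss. fs(1)h, the BET bromodomain gene, had 1 site in its first intron, 801 bp upstream of an internal TSS (rank 1769, signal 370).

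**Figure D2:**
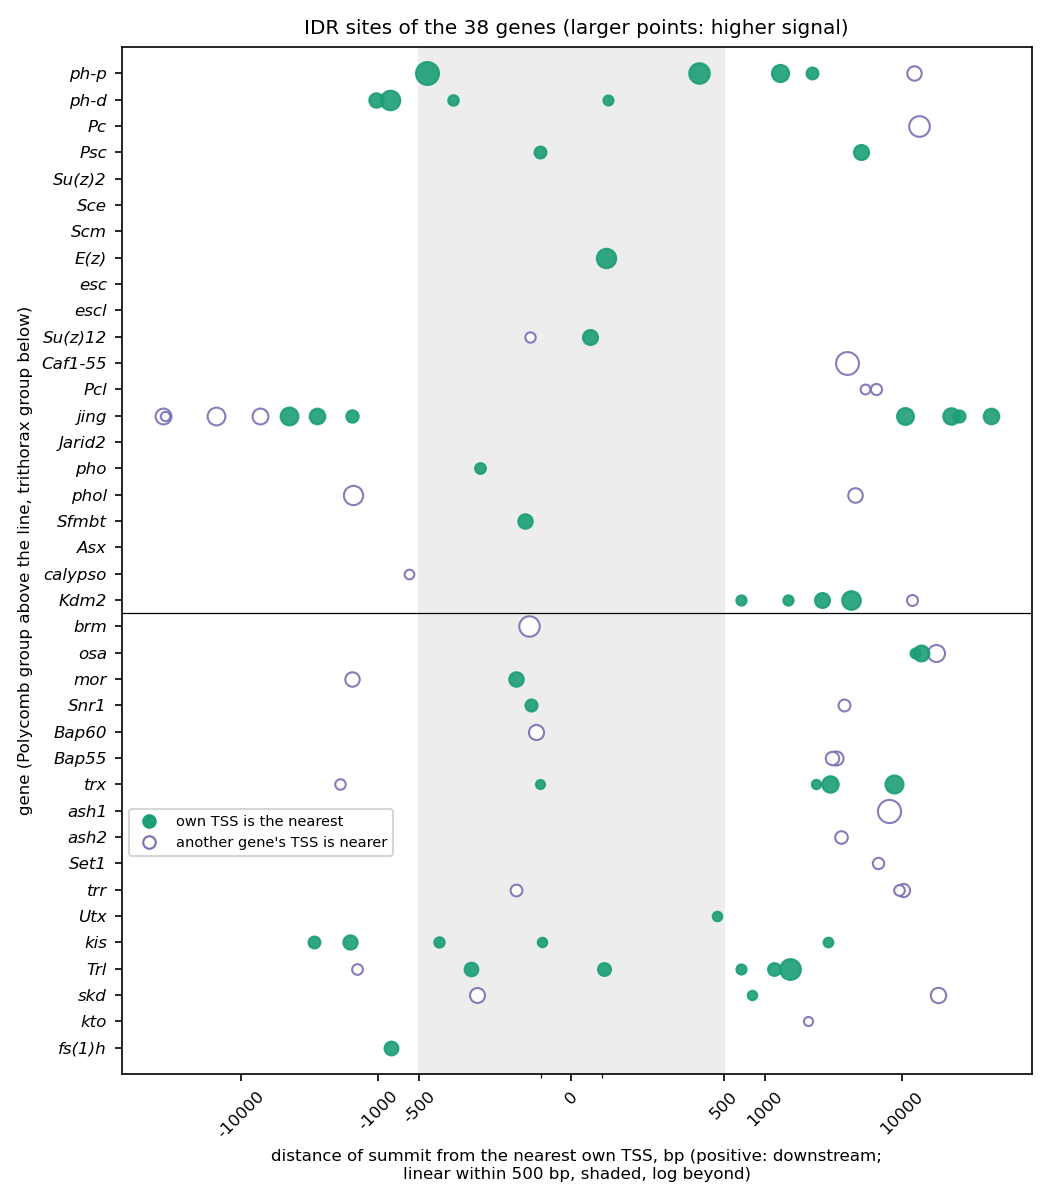
Signed distance (bp; linear within 500 bp, shaded, and log beyond) of each IDR summit in the territories of the 38 genes from the nearest own TSS, positive downstream. Point size rises with signal, and open points are nearer to the TSS of another gene. Sites cluster around the starts of ph-p, ph-d and Trl, while the sites of ash1, Pc and Caf1-55 are open points far downstream.

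The 7 members without a site were all of the Polycomb group: Su(z)2, Sce, Scm, esc, escl, Jarid2 and Asx. Their nearest IDR summits lay between 4867 bp (Su(z)2) and 24898 bp (Sce) outside the gene. In the authors' pooled list of 30000 peaks, where 74.2% of all genes have a peak in their territory, 6 of the 7 had a weak peak. The highest were at Jarid2 (pooled rank 6335, signal 114, 59 bp from a TSS) and Su(z)2 (pooled rank 6533, signal 111), under the lowest IDR signal of 134. The best peak of Jarid2 ranked 4486 in replicate 1 and 9721 in replicate 3. At Su(z)2 the best peaks of the replicates were different ones, 9655 bp from a TSS in replicate 1 (rank 6918) and 11146 bp in replicate 3 (rank 4804). Scm had a pooled signal of 83.1, Asx 58.1, escl 55.6 and Sce 49.0. esc had no peak in the pooled list or in either replicate list.

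Of the Polycomb group genes, 14 of 21 (66.7%) held a site in the territory, and of the trithorax group genes 17 of 17. Genes of like length would give 9.81 and 8.54. At an own TSS the counts were 7 of 21 (33.3%) and 10 of 17 (58.8%), with 5.70 and 4.64 from length. In the body they were 7 of 21 and 7 of 17, with 4.27 and 4.66 from length. By nearest TSS they were 9 of 21 (42.9%) and 9 of 17 (52.9%), with 6.86 and 6.32 from length. No test was made, since the genes are not replicates and were listed with results of these data known. Their strongest sites had a median rank of 262 over the 14 Polycomb group genes and of 1542 over the 17 trithorax group genes. The first median leaves out the 7 Polycomb group genes without a site, so the 2 medians are not like for like. With the stronger 2677 sites alone, 11 of 21 and 13 of 17 genes held a site in the territory. Of all genes, 23.0% did. The ranges of rank overlapped almost wholly, from 2 to 4577 and from 1 to 5098. Gene length was similar, with medians of 7137 and 8331 bp.

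**Figure D3:**
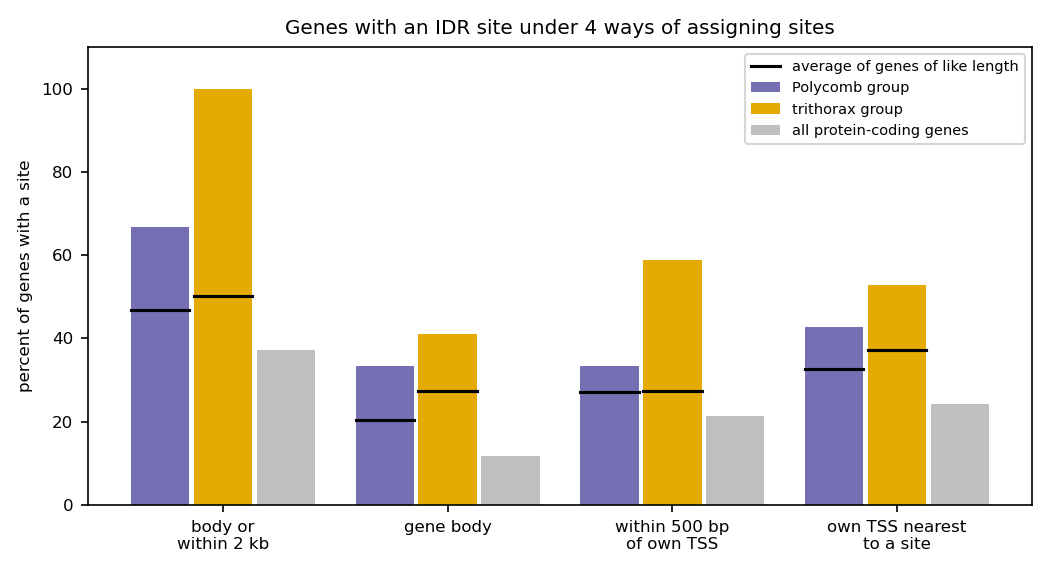
Percent of the 21 Polycomb group and 17 trithorax group genes with an IDR site under 4 ways of assigning sites. Black lines give the average share among protein-coding genes of like length, and grey bars the share of all 13945 genes (37.2%, 11.8%, 21.4% and 24.3%). The trithorax bar reaches 100% only where neighbouring promoters within 2 kb count.

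Several members carried more sites than genes of like length. In all, 10 of 38 (26.3%) had 3 or more, against 4.06% of all genes and 3.04 members from length. These were ph-p, ph-d, jing and Kdm2 of the Polycomb group and osa, trx, trr, kis, Trl and skd of the trithorax group. At ph-p, ph-d, Kdm2, Trl, trx, jing, kis, osa and skd most sites lay in the gene or just upstream of it. An own TSS was the nearest for only 1 of the 3 sites of skd, 2 of the 3 of osa and 7 of the 11 of jing. At each of the others it was the nearest for at least 4 sites. At trr every site was nearer to the TSS of a neighbour. The longest of the 10 length classes takes in every gene from 14627 bp upwards, so jing (119787 bp) and kis (40089 bp) were set beside shorter genes too.

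**Figure D4:**
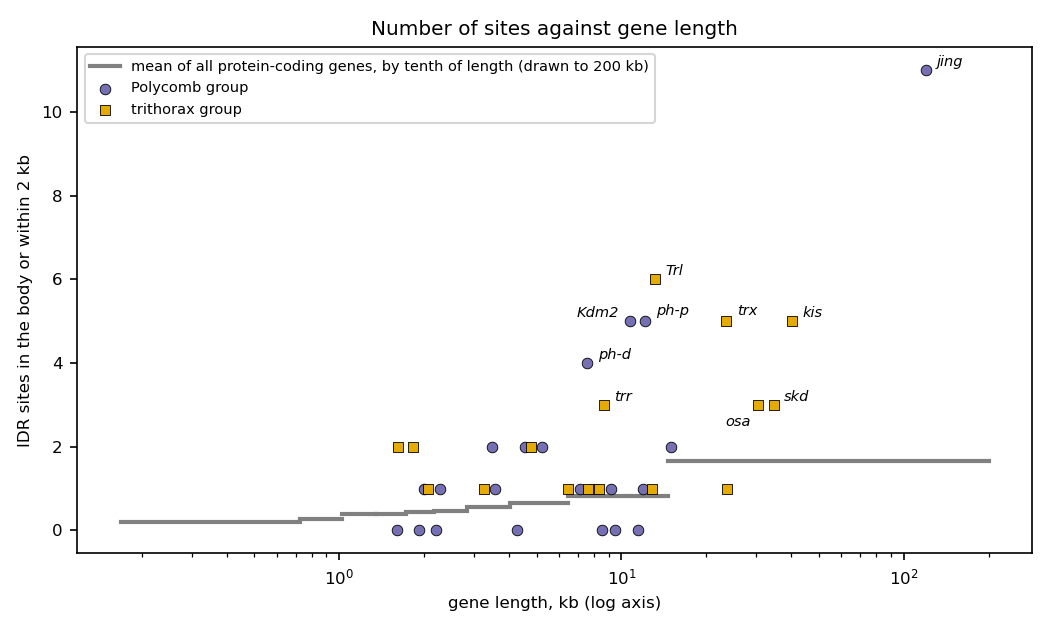
IDR sites in the territory against gene length (kb, log axis) for the 38 genes. Grey steps give the mean over all protein-coding genes in each of 10 length classes, from 0.198 to 1.67. jing has 11 sites and Trl 6, and genes without a site occur up to 11411 bp.

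Promoters and own introns held nearly all of the members' sites, and no summit lay in a coding exon or a 3' untranslated region of a member. Of the 77 sites, 40 (51.9%) lay within 500 bp of the TSS of any protein-coding gene, against 41.9% of all IDR sites. Another 31 lay in an intron of the member over 500 bp from any TSS, and 6 elsewhere. The intronic sites had a median signal of 555 and the promoter sites of 263, where all intronic and all promoter sites of the list had 253 and 272. Of the 22 pairs of a member and a site within 500 bp of its own TSS, 11 had a TSS of another gene within 500 bp as well. This was so for 7 of 12 pairs in the trithorax group and 4 of 10 in the Polycomb group. How often such pairs over all genes have another TSS so close was not computed. Without that share, these counts cannot say whether the members differ from other genes.

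The replicates matched at 72 of the 77 sites, with a partner within 100 bp in both full lists. Over the whole IDR list they matched at 5049 of 5354 sites, a similar share. The 5 exceptions among the 77 were the site between ph-p and ph-d and single sites of Bap55 and trx, together with 2 of kis. The log2 ratio of signal in replicate 3 to replicate 1 had a median of 0.81 at members' sites and 0.69 at all matched sites. It was lower at intronic sites of members (median 0.33, 10 of 30 above the median of all sites) than at their promoter sites (median 1.21, 26 of 37 above). Over the whole list the medians were 0.52 and 0.92. jing alone gave 10 of the 30 intronic sites of members, so 1 gene weighs on their median. Since the scale of the signal is not stated, only the order of these ratios can be read. Among members picked after their values were seen, the sites of jing ran from -0.48 to 1.23 and those of osa from -0.94 to 0.57. The sites of Su(z)12 (1.84 and 2.74), Bap60 (1.78) and brm (1.65) had higher ratios.

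**Figure D5:**
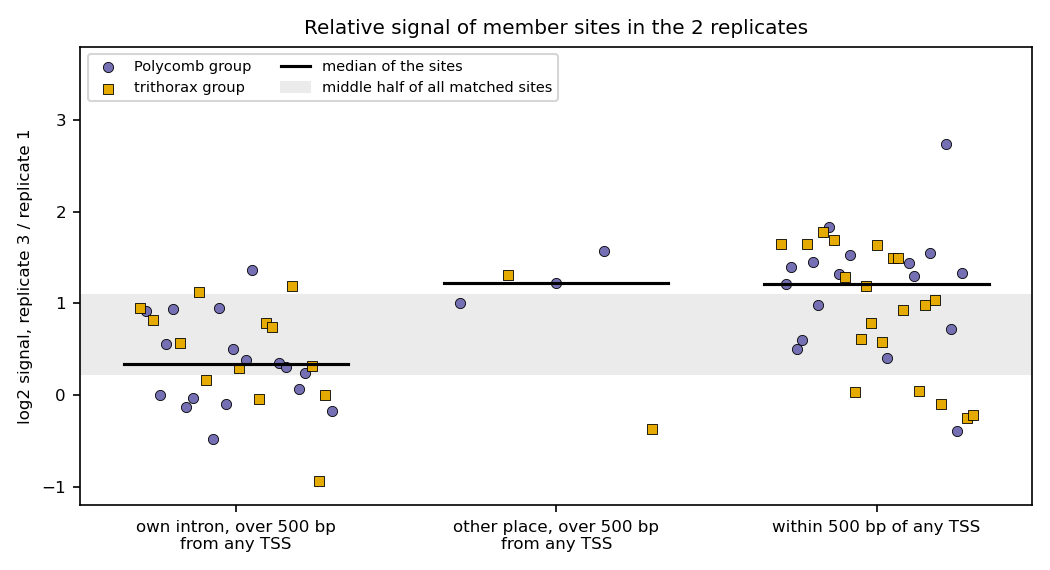
log2 ratio of the authors' signal in replicate 3 to that in replicate 1 at the 72 sites matched in both, by place. Points are sites in order of rank from left to right within a place, black lines are medians (0.33, 1.23 and 1.21), and the grey band is the middle part of all 5049 matched sites, from 0.23 to 1.09. Intronic sites lie lower than promoter sites, with overlap, and 10 of the intronic sites are in jing.

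Short preset motifs were searched on both strands within 50 bp of each summit, and matches may overlap. Most were found at few of the members' sites, so that single sites move their shares. The homeodomain core TAATTA was found at 10 of 77 sites (13%) against 10.6% of all sites, and TAATGA at 3 (3.90%) against 7.86%. The window of brm shown above holds 2 copies of TAATTA, the first overlapping a TATAAA match and the second a TAATGA match, and at ph-p (rank 2), ph-d (rank 85), Trl, Kdm2, ash1 and Caf1-55 the windows shown hold none. The TATA box TATAAA was at 14 sites (18.2%) against 24.3%. Of motifs linked to Polycomb response elements, GAGAG, bound by GAGA factor, was at 6 sites (7.79%) against 8.61%, GCCAT, the core bound by Pho and Phol, at 8 (10.4%) against 13.9%, and GAAAA, a sequence bound by Dsp1, at 36 (46.8%) against 45.7%. ATCGAT, the core of the DREF motif, was at 2 sites (2.60%) against 4.0%, the Zelda motif CAGGTA at 3 (3.90%) against 1.87%, and the E-boxes CATATG and CAGCTG at 4 (5.19%) and 2 (2.60%) against 5.10% and 2.58%. Within 100 bp, CAGCTG was at 12 of 77 sites (15.6%) against 6.82%, GAGAG at 22 (28.6%) against 20.5% and TAATGA at 6 (7.79%) against 14.3%. These motifs were picked as furthest from all sites in percentage points. The others were closer: TAATTA 23.4% against 18.2%, TATAAA 39.0% against 39.1%, GCCAT 27.3% against 25.3% and GAAAA 67.5% against 72.9%. ATCGAT was at 10.4% against 9.08%, CAGGTA at 3.90% against 4.26% and CATATG at 10.4% against 8.95%. By group, GAGAG was at 5 of 38 Polycomb group and 1 of 39 trithorax group sites within 50 bp, and at 10 and 12 within 100 bp, so the order of the groups turned with the window. TAATTA was at 3 and 7 sites within 50 bp and at 7 and 11 within 100 bp. No difference was tested.

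In a wider list of genes linked to the same groups, 20 of 32 (62.5%) had a site in the territory. It joined 12 genes of the Polycomb side, such as the Ogt gene sxc, corto and the DNA-binding factors psq, Spps, Dsp1 and cg, with 20 of the trithorax side, such as tna, the PBAP subunits Bap170 and polybromo, the COMPASS subunits wds and Rbbp5, and the Mediator kinase Cdk8. Of the former, 10 of 12 held a site in the territory, with 5.82 from length. Of the latter, 10 of 20 did, with 9.19 from length. At an own TSS the counts were 5 of 12 and 8 of 20, with 3.32 and 5.12 from length. Unlike the members, only 2 of the 32 genes (6.25%) had 3 or more sites, with 2.60 from length. The strongest sites of this list were those of tna (rank 176, signal 1536), mod(mdg4) (rank 263, signal 1267) and Dsp1 (rank 390, signal 1033), none as strong as those of ph-p or Trl.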

How the data were processed

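Chromatin of 2 biological replicates was sheared by sonication (stated size range 200 to 800 bp). The authors called peaks on each replicate and on both together against 1 control alignment and derived an IDR list, on dm6, per the notes deposited with the files. Which peak caller was used, at what IDR threshold and at what read depth is not given here, so the depth is unknown. The value per peak is the authors' deposited signal. It served to order peaks inside 1 list. As a ratio between replicate lists it shows order only. Genes came from Ensembl release 115 and sequence from RefSeq Release 6. Summits gave the positions. A gene's expected share is that of all protein-coding genes in its class of 10 by territory length. Replicate peaks were matched by nearest summit within 100 bp. The software was Python 3.11.15, numpy 2.4.6, pandas 2.3.3 and, for alignments, Biopython 1.88. Simulated summits at known positions served to check the territory, TSS and replicate-match windows only. The motif search and the alignments were not checked in this way. All members are named, with their strongest site. The members and lists were chosen with earlier results of these data known, so no p-value is given. Other lists, assignments and windows were tried as alternatives. Of the strongest sites of the 10 members with the highest signal, 7 are printed. Pc and E(z) were left out because they overlap untranslated regions, and phol as a further promoter of a neighbour.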

Additional observations from a re-analysis of the deposited data

How the results depend on the processing

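The counts over members were recomputed with other lists and assignments. Without replicate 1 or replicate 3, using the strongest 5354 peaks of the other, 30 members had a site in either case, 29 of the 31 among them each time. Trithorax group genes with a site then numbered from 15 to 17 and Polycomb group genes from 13 to 15, members with a site at an own TSS from 18 to 19, and sites from 73 to 81. Of all genes, 37.9% without replicate 1 and 36.2% without replicate 3 had a site in the territory, and 21.9% and 20.8% at an own TSS. Among the stronger 2677 sites, 24 members had a site in the territory, against 23.0% of all genes, and 9 at an own TSS (4 of the Polycomb group and 5 of the trithorax group), against 12.1%, and the territories held 45 sites. With all 30000 pooled peaks, 32 members had a peak at an own TSS (17 in the Polycomb group), and the territories held 312 peaks, but 51.3% of all genes then had a peak at their TSS. In the body alone, 14 members had a site (7 and 7 by group) with 43 sites. By nearest TSS, 18 members did (9 and 9) with 48 sites. These assignments ask for less or more by construction. Keeping only IDR sites with a summit within 100 bp or 50 bp among the strongest 5354 peaks of both replicates, not the full lists, left 3892 and 3311 sites and 26 and 22 members with a site, against 29.4% and 25.9% of all genes. TSS windows of 200 and 1000 bp gave 13 and 20 members, against 15.0% and 24.6% of all genes, and a territory of 5 kb gave 32, against 50.8%. In windows 350 bp from the same summits, TAATTA was in 5.19% of the members' windows and GAGAG in 15.6%, against 5.58% and 14.6% over all sites. At this unknown depth, absence of a site is not absence of binding. No paired analysis was possible because the series has 1 group.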
